A study of Rattus norvegicus with 2 samples.

Results

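The genes described here are 43 genes of programmed cell death: regulators and targets of the tumour suppressor p53, the BCL2 family, caspases, and the adaptors and inhibitors around them. They were listed by name and function, and every probe set that the platform annotation assigns to exactly 1 of them was taken. Of the 43, 40 had such a probe set (61 probe sets in all, of 20826 that name 1 gene), and 32 could be measured, of 9580 genes measured on the arrays. RNA came from microglial cells of Sprague Dawley rats, the resident macrophages of the brain, on Affymetrix rat arrays. The resting group (1 array) had no exposure, and the OGD group (1 array) had been deprived of oxygen and glucose for 3 h, which mimics ischaemia in culture. Both were grown in DMEM with 10% fetal calf serum, and the labels do not say whether the cells were primary or how many cultures or animals each array represents.

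In this pathway, damage or stress stabilises p53, which its inhibitors MDM2 and MDM4 otherwise restrain, and p53 induces genes for cell cycle arrest and for death. Pro-survival BCL2 proteins hold back the pore formers BAX and BAK, and BH3-only proteins relieve that block. Pores in the mitochondrial outer membrane release cytochrome c, which assembles the APAF1 apoptosome and activates caspase-9, while death receptors act through FADD and caspase-8. Much of this control is exerted on proteins, by cleavage, phosphorylation and degradation, which an RNA array does not see.

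Both arrays had nearly the same distribution, and the median of their non-control probe sets, an intensity of 19.6 at rest and 19.7 after OGD, served as the floor of measurement. A gene counted as measured when its brightest probe set exceeded the floor at rest, after OGD or in both, and all 32 measured members did so in both. Differences are log2 of the OGD intensity minus log2 of the resting intensity. With 1 array per group no test across samples is possible, and every difference below describes these arrays only. The spread between arrays or cultures of a group could not be estimated. Used in its place was the spread between probe sets of the same gene, an SD of 0.147 on the log2 scale over 1902 genes. That SD is pooled over bright and dim genes. Among genes within 2-fold of a member's brightness, the SD of the differences ran from 0.11 for Aifm1 and Bcl2a1 to 0.167 for Tradd. Of 13 microglial markers with a probe set all were measured, and 12 were lower on the OGD array, where 4915 of 9580 measured genes were lower. The exception, C1qc, was 1.23-fold higher, with 26.3 at rest and 32.3 after OGD. The summed intensity of these markers was 1406 at rest and 1347 after OGD. Most of it came from Trem2 and Cd68, 1.04-fold and 1.03-fold lower. The median difference of the 13 markers, by the brightest probe set, was -0.096. P2ry12 was the lowest of them at -0.26, with 36.6 at rest and 30.6 after OGD. Of 7 astrocyte markers 3 were measured, all higher on the OGD array, at a summed 73.3 at rest against 93.2. All had low intensities not far above the floor, and the other astrocyte markers were under it. At rest and after OGD, Gfap had 27.4 and 36.9, Slc1a2 23.8 and 32.0, and Gja1 22.1 and 24.3. The neuronal list had 1 measured marker of 6 (Syn1, higher by 0.24) and the endothelial list 1 of 5 (Vwf, higher by 0.28). Of the oligodendrocyte lineage markers 2 were higher and 1 lower, at a summed 112.2 and 117.5, and of the fibroblast markers 1 was higher and 2 lower, at a summed 187.9 and 174.9, with Thy1 1.28-fold lower. The part of such markers in the differences below was not tested.

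No member reached 1.5-fold in either direction, the threshold that the design text of the series uses, and across all measured genes 0.115% did. At 1.2-fold 1 of 32 measured members, Bok, was higher on the OGD array, where 3.56% of all measured genes were, and 1, Bid, was lower, where 3.97% of all measured genes were. These counts are near those shares. The members divided evenly, with 16 higher and 16 lower, while over all measured genes 4103 were higher, 4915 lower and 562 equal. The median member difference was 0.0061, against -0.0077 for all measured genes, and it was -0.0029 with a lower floor or with the mean over probe sets. Of the 32 members, 23 lay within 1.1-fold. The median size of a difference, in either direction, was 0.092 for the members and 0.093 for all measured genes. In bulk RNA such as this, fewer cells of a type and less RNA per cell cannot be told apart.

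**Figure D1:**
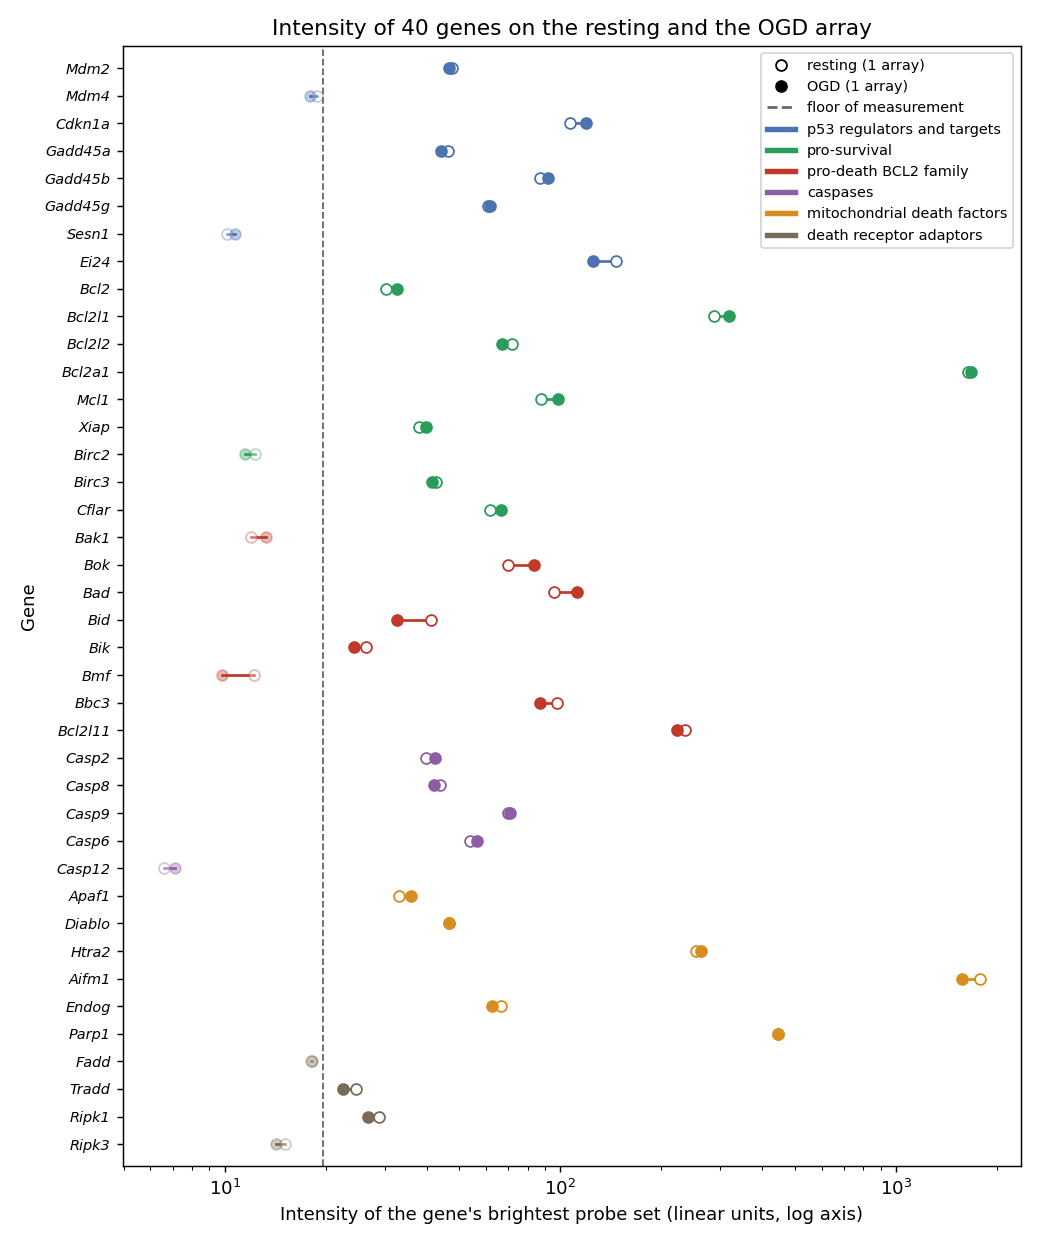
Intensity (linear units on a log axis) of the brightest probe set of each of 40 members on the resting array (open circles) and the OGD array (filled circles), coloured by role, with the floor of measurement dashed and the 8 members under it drawn pale. The 2 circles of most genes nearly touch, and Bid shows the widest gap among the measured members, from 41.2 to 32.6.

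The genes nearest to p53 split evenly, with 3 of 6 measured members higher and 3 lower on the OGD array and none past 1.2-fold. Their median difference was -0.0021, and 0.0027 and 0.001 after quantile or loess scaling. Cdkn1a, which encodes the cyclin-dependent kinase inhibitor p21 and is a textbook p53 target, had an intensity of 106.6 at rest and 119.4 after OGD, a difference of 0.16. Its other probe set gave 34.5 and 36.0, so both were higher on the OGD array. The difference of Cdkn1a was about as large as the SD between probe sets of a gene.

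Ei24, which encodes a membrane protein of the endoplasmic reticulum induced by p53, had 146.7 at rest and 125.0 after OGD, 1.17-fold lower. It was the lowest of the p53 genes, and it rests on a single probe set. Mdm2, the ubiquitin ligase that degrades p53, had 47.7 and 46.7, a difference of -0.03, and its other 2 probe sets were under the floor on both arrays. The 3 growth arrest and DNA damage genes differed little from rest to OGD. Gadd45a had 46.2 and 44.1, Gadd45b 87.1 and 92.2, and Gadd45g 60.7 and 61.9. These are stress-responsive genes, of which Gadd45a is the best known p53 target, and their differences ran from -0.07 to 0.08. Mdm4, a relative of Mdm2, and the sestrin gene Sesn1 were under the floor in every probe set on both arrays.

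To describe the bases near these genes, the 250 bases before each annotated start site were searched for the p53 half-site consensus. This consensus is a run of purines, a C and a G around A or T bases, and a run of pyrimidines. The consensus is its own reverse complement, so both strands are covered. Promoter windows from RefSeq (GRCr8) matched 34 of the 43 members by symbol, and some genes have several. The half-site was present for 4 of 8 p53 regulators and targets, against 7.15% of 27457 genes in all, a count that describes these windows and was given no test. The pro-survival genes had it in 1 of 7, and the pro-death BCL2 genes in 0 of 6. Caspases had it in 0 of 4, mitochondrial death factors in 0 of 6 and death receptor adaptors in 0 of 3. Over all members with a window it was 5 of 34, or 14.7%. Each match is shown 5′ to 3′ on the gene's strand, with the half-site in capitals and 10 bases on either side:
Cdkn1a (chr20:7150721-7150750, + strand): tggctttcagGAACATGTCTtgacttgttc
Ei24 (chr8:44699431-44699460, - strand): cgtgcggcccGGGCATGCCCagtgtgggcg
Gadd45a (chr4:97486828-97486857, - strand): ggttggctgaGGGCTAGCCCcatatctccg
Sesn1 (chr20:46948537-46948566, + strand): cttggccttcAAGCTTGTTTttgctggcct
Cflar (chr9:67679416-67679445, + strand): tatgttttcaAGACAAGTTTtccctgtgtg

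The half-site began 201 bases before the start site in Cdkn1a, 79 in Ei24, 48 in Gadd45a, 172 in Sesn1 and 123 in Cflar. Those of Ei24 and Sesn1 lie inside the annotated span of the gene, which has a further start upstream, and the others lie outside the annotated span of their gene. Genes with the half-site did not share a direction: on the OGD array Cdkn1a and Cflar were higher by 0.16 and 0.11, Ei24 and Gadd45a lower, with differences of -0.23 and -0.07, and Sesn1 was not measured. A match is a description of these bases, and binding was not measured.

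Among pro-survival genes, 6 of 8 measured members were higher and 2 lower on the OGD array, none past 1.2-fold. Their median difference was 0.092 in the brightest probe sets, but -0.18 in the next brightest, which were measured for 4 of them. Mcl1, a short-lived BCL2 relative, had 87.6 at rest and 98.7 after OGD, the highest difference of the role at 0.17. Its other probe set gave 43.5 and 41.2, a difference of -0.08, so the probe sets of Mcl1 differed in sign.

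Bcl2l1, which encodes BCL-XL, showed the widest disagreement between probe sets of a member. The brightest gave 287.2 at rest and 318.7 after OGD, a difference of 0.15, and another gave 24.2 and 19.8, a difference of -0.29. That second probe set lay just above the floor on the OGD array. Bcl2l2, which encodes BCL-W, was lower in both, at 71.6 and 67.1 in one and 29.4 and 23.2 in the other, with differences of -0.09 and -0.34. The second of these was past 1.2-fold. Bcl2, the founding member of the family, had 30.3 and 32.7, 1.08-fold higher. Bcl2a1, an NF-kB-induced survival gene of blood cells, had 1640.3 and 1674.0, a difference of 0.03. Of these 5 BCL2-type survival genes 4 were higher in the brightest probe set, and their 8 measurable probe sets divided into 4 higher and 4 lower.

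The other pro-survival genes act on caspases and death receptors. Cflar, which encodes FLIP, an inactive relative of caspase-8, had 61.7 at rest and 66.7 after OGD, and 25.6 and 26.1 in its other probe set. Both probe sets of Cflar were higher, by 0.11 and 0.03. Xiap, a direct caspase inhibitor, had 38.0 and 39.9. Birc3, a ubiquitin ligase of TNF receptor signalling, had 42.7 and 41.6, and its relative Birc2 was under the floor on both arrays. None of these was 1.1-fold apart.

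**Figure D2:**
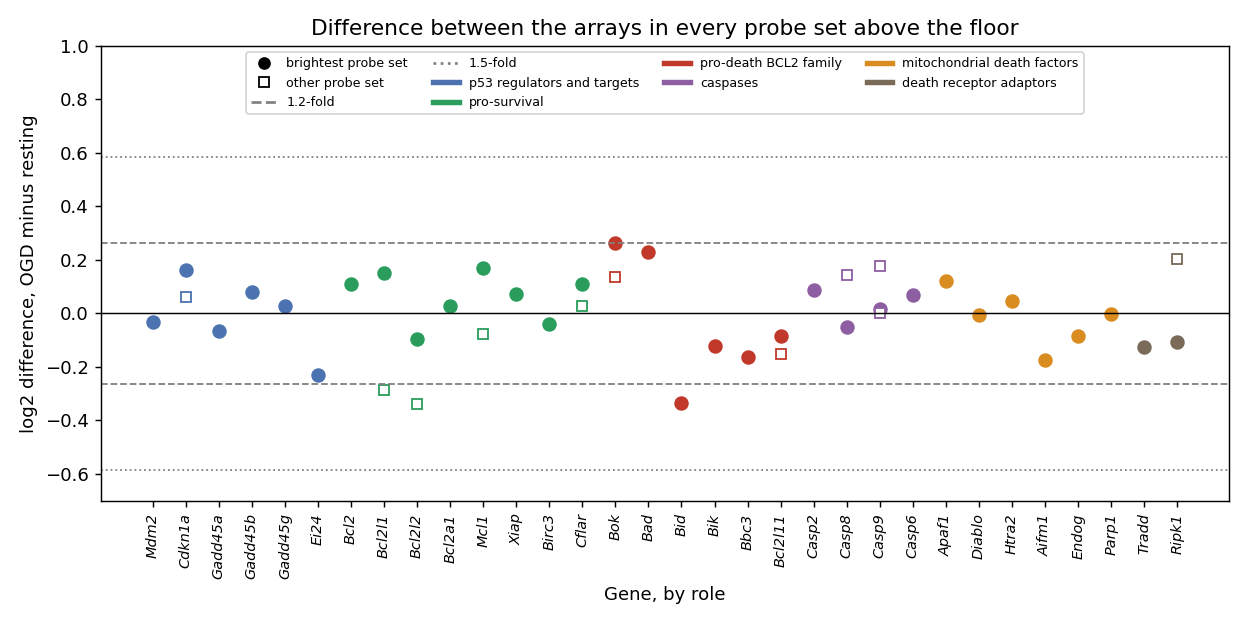
Log2 difference, OGD minus resting, of each probe set above the floor on both arrays for the 32 measured members, with filled circles for the brightest probe set of a gene, open squares for its others, and lines at 1.2-fold and 1.5-fold. Of 43 probe sets 1 lies above the upper 1.2-fold line (Bok) and 3 lie below the lower one (Bid, Bcl2l1 and Bcl2l2), and none reaches 1.5-fold.

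Counted over the 43 member probe sets that passed the floor on both arrays, 22 were higher, 20 lower and 1 equal. The 1.2-fold count was 1 higher, where 3.89% of 11594 such probe sets of all genes were, and 3 lower, where 4.18% were. Both members past 1.2-fold in their brightest probe set belonged to the pro-death BCL2 family. Of 6 measured genes in that family 2 were higher and 4 lower, with a median of -0.10.

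By the brightest probe set of each gene, Bid was the member furthest from equality. It encodes a BH3-only protein that caspase-8 cleaves, which carries the death receptor signal to mitochondria. Its intensity was 41.2 at rest and 32.6 after OGD, 1.26-fold lower, and 1.64% of all measured genes had a lower difference. Of 5327 genes above the floor on both arrays and within 2-fold of its brightness, 9.78% were past 1.2-fold in either direction. Its other probe set was under the floor on both arrays, at 8.23 and 9.27, so the difference of Bid rests on 1 probe set. With the floor at the 70th percentile of intensities the difference was -0.064, since its OGD value then lay under the floor.

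Bok, a pore-forming relative of BAX and BAK, was the highest member, and only just past 1.2-fold, with a log2 difference of 0.264 against 0.263 for that threshold. It had 69.7 at rest and 83.7 after OGD, 1.2-fold higher, and its other probe set gave 57.2 and 62.8, a difference of 0.13. Both probe sets of Bok were higher on the OGD array, the second short of 1.2-fold, and the mean over them was 0.20. Among 4587 genes of like brightness 7.02% were past 1.2-fold. Of the other pore formers, Bak1 was under the floor on both arrays. The only probe set for Bax also names another locus, and it was not used.

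The BH3-only genes, whose products sense stress and trigger the pore formers, were lower in 4 of 5 measured members. Bad, the exception, encodes a protein that binds BCL-XL unless phosphorylated, and had 95.9 at rest and 112.3 after OGD, 1.17-fold higher in its single probe set. Bbc3, which encodes the p53-induced protein PUMA, had 97.6 and 87.1, 1.12-fold lower. Bcl2l11, which encodes BIM, was lower in both probe sets above the floor, at 235.3 and 222.2 in one and 64.7 and 58.2 in the other. Its differences of -0.08 and -0.15 were of the order of the spread between probe sets. Bik, the gene of a BH3-only protein of the endoplasmic reticulum, had 26.4 and 24.2. Bmf was under the floor on both arrays, and Pmaip1, which encodes NOXA, had no entry among the probe sets used.

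Caspase genes had the narrowest range of the 4 main roles. Of 4 measured, 3 were higher and 1 lower, with differences from -0.05 to 0.09 and a median of 0.042. Casp2, an initiator caspase, had 39.9 at rest and 42.5 after OGD, the highest of them. Casp8, the initiator at death receptors, had 43.7 and 42.2, the lowest, but 22.8 and 25.2 in its other probe set, a difference of 0.14. Its probe sets therefore differed in sign.

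Casp9, the initiator of the apoptosome, had 69.9 and 70.7 in its brightest probe set, 29.7 on both arrays in the next and 22.1 and 25.0 in the third. The third had a difference of 0.18 near the floor. Exactly equal values were found in 8.70% of all non-control probe sets, so those of Casp9 may not show an unchanged level. Casp6, an executioner caspase, had 53.8 and 56.5, and Casp12, a rodent caspase linked to endoplasmic reticulum stress, was under the floor.

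**Figure D3:**
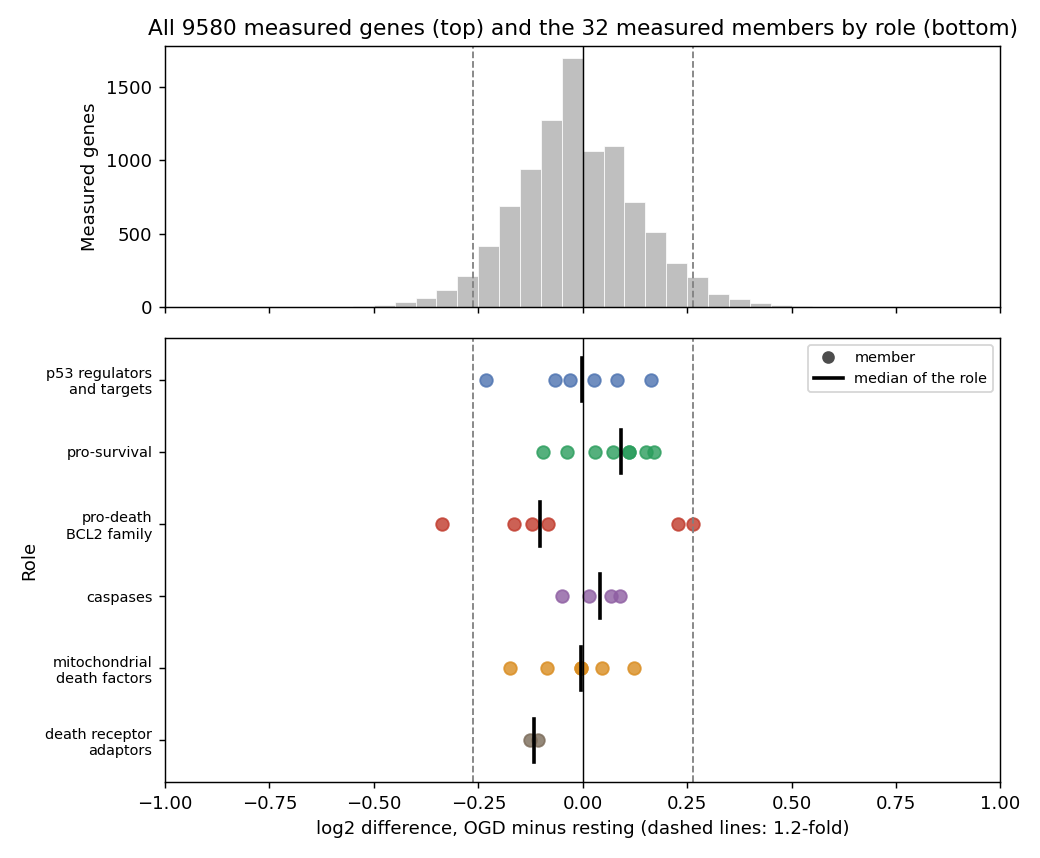
Top, number of measured genes by log2 difference, OGD minus resting, over all 9580 measured genes, and bottom, the difference of each of the 32 measured members by role, with the median of each role as a black bar and 1.2-fold dashed. All roles lie within the bulk of the distribution, with medians between -0.12 for the 2 measured death receptor adaptors and 0.092 for the pro-survival genes.

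Set side by side, the median differences of the brightest probe sets were 0.092 for pro-survival genes, 0.042 for caspases, -0.0021 for p53 regulators and targets and -0.10 for the pro-death BCL2 family. The gap between pro-survival and pro-death genes was -0.19 on the log2 scale (pro-death minus pro-survival). Individual members overlapped: Bok and Bad lay above every pro-survival gene, and the other 4 pro-death genes ranged from -0.34 to -0.08 against -0.09 to 0.17 for pro-survival genes. In the next brightest probe sets the medians were -0.18 for 4 pro-survival genes and -0.009 for 2 pro-death genes, so their order was the opposite. No test of these gaps is possible with 1 array per group.

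Factors that act at and after the mitochondrial pore gave 2 higher and 4 lower of 6 measured members, with a median of -0.0035. Aifm1, which encodes a flavoprotein of the intermembrane space that moves to the nucleus in caspase-independent death, had 1775.7 at rest and 1572.8 after OGD, 1.13-fold lower and the lowest of this role. Apaf1, the scaffold of the apoptosome, had 33.1 and 36.0, the highest of it at 0.12. Both were within 1.2-fold.

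The released inhibitors of IAP proteins were near equality, Diablo with 46.6 and 46.5 and the protease gene Htra2 with 254.1 and 262.5. Endog, a mitochondrial nuclease, had 66.6 and 62.8, and Parp1, a DNA repair enzyme that caspases cleave, had 445.6 and 444.7. Cycs, the gene of cytochrome c, was represented only by probe sets that also name related loci, which were not used.

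Of the adaptors of death receptors both measured members were lower on the OGD array. Tradd, the adaptor of TNF receptor 1, had 24.6 at rest and 22.5 after OGD. Ripk1, a kinase that directs cells to survival, apoptosis or necroptosis, had 28.8 and 26.7, a difference of -0.11, but 22.0 and 25.4 in its other probe set, a difference of 0.20. All of these values lay near the floor. Fadd and the necroptosis kinase gene Ripk3 were under it on both arrays.

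Agreement between probe sets could be set out for 10 members with at least 2 above the floor on both arrays. In 5 of them (Bok, Bcl2l2, Bcl2l11, Cdkn1a and Cflar) all such probe sets had the same sign, and in 4 (Bcl2l1, Mcl1, Casp8 and Ripk1) the signs were mixed. Casp9 had 1 probe set with the same value on both arrays. The SD between probe sets of a member was 0.155, and the SD of the differences among the 32 members was 0.135. By these values differences between members were no wider than those between probe sets of 1 member. The 0.155 comes from 10 members and includes their dimmer probe sets, while the 0.135 uses only the brightest of each member. The values are therefore not on equal terms.

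**Figure D4:**
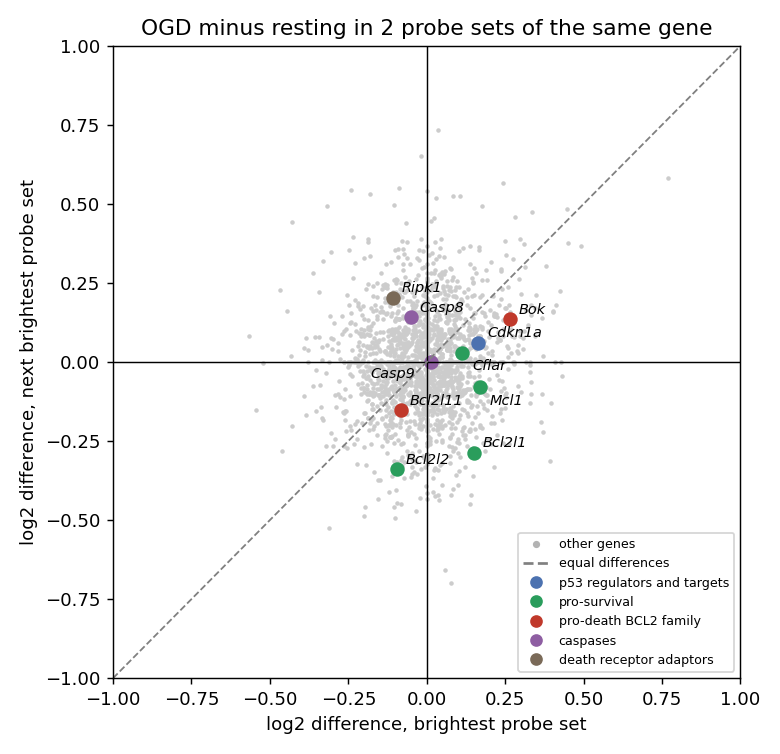
Log2 difference, OGD minus resting, in the next brightest against the brightest probe set of each gene with 2 above the floor on both arrays, for 10 members (coloured by role, named) and 1892 other genes (grey), with equal differences on the dashed line. Bok, Cdkn1a and Cflar lie in the upper right, and Bcl2l1, Mcl1, Casp8 and Ripk1 lie in quadrants of opposite sign.

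A further list of 68 genes of the same pathways, not among the 43, gave 37 measured genes, of which 18 were higher, 18 lower and 1 equal, with a median of 0. Of these 2 were past 1.2-fold, both higher, where 3.56% of all measured genes were 1.2-fold higher and 3.97% lower. Casp4, an inflammatory caspase, had 54.1 at rest and 68.5 after OGD, 1.27-fold higher in its single probe set. Cyld, a deubiquitinase that acts on RIPK1 complexes, had 66.2 and 81.1, 1.23-fold higher, and 32.5 and 39.0 in its other probe set, a difference of 0.26. The list of p53 core genes and damage kinases had 5 measured genes: Hipk2, Tp53bp1, Ppm1d, Usp7 and Cop1. Its damage kinase genes Atr, Chek1 and Chek2 stayed below the floor at rest and after OGD. Another, Atm, lacked a probe set of its own. All 5 measured genes were lower by the brightest probe set, from -0.26 to -0.06. Over their 9 probe sets above the floor on each array, however, 4 were higher and 5 lower. The ubiquitin protease gene Usp7, for example, had -0.07 in its brightest probe set and 0.07 and 0.16 in its others above the floor. The list of further p53 targets had 5 higher and 6 lower, and that of further BCL2 relatives had 3 higher, 3 lower and 1 equal. Fas, the gene of a death receptor, was under the floor on both arrays.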

How the data were processed

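RNA from 1 resting and 1 OGD sample was measured on 1 array each. The deposited values are intensities on a linear scale, 1 summarised value per probe set. How the authors corrected background, summarised probes and scaled the arrays is not given in the sources used here, so a shift shared by most genes cannot be seen. The ratio of 3′ to 5′ control probe sets for beta-actin was 3.33 at rest and 3.28 after OGD. For GAPDH it was 1.97 and 2.04. The part of RNA quality in the disagreement between probe sets was not tested. Of 31042 non-control probe sets 20826 name 1 gene, 436 several and 9780 none in the annotation used. Symbols were updated through Entrez IDs to RefSeq GRCr8 (20758 matched).

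Each gene was represented by its brightest probe set over both arrays. Values under the floor, the median of non-control probe sets, were set to it. Genes were counted at 1.5-fold and 1.2-fold. Described with both intensities were members 1.2-fold apart, the extremes of each role and members with several probe sets above the floor, and from the wider list genes 1.2-fold apart and Fas; other genes of the rule are not reported here. The members, lists and thresholds were chosen with earlier results of these data known. Other members are given as well. Calculations used Python 3.11.15 with pandas 2.3.3 and statsmodels 0.14.6. They were tested on simulated data, with differences of at least 1.5-fold put into genes well above the floor. The simulation did not cover dimmer genes or smaller differences, and all member differences were smaller. The 8 alternatives varied the floor, the scaling (quantile, or loess with a span of 0.3) and the choice of probe set. The number of arrays limits the precision.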

Additional observations from a re-analysis of the deposited data

How the results depend on the processing

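No paired analysis was possible because each group had 1 array. In all 8 alternatives 0 members reached 1.5-fold. The count of members 1.2-fold lower was 2 (Bid and Bmf) with the floor at the 30th percentile or no floor, 0 with the floor at the 70th percentile, 0 with the mean over probe sets, where Bid was under the floor and so not measured, and 2 (Bcl2l1 and Bcl2l2) in the next brightest probe sets, which were measured for 10 members. The count 1.2-fold higher was 0 with the mean over probe sets and in the next brightest probe sets. The median of pro-survival genes was 0.029 with the floor at the 70th percentile and with the mean over probe sets, and -0.18 in the next brightest probe sets. In those the medians of p53 genes (1 gene) and pro-death genes (2 genes) were 0.061 and -0.009. A median was taken to have moved when it shifted by more than the SD between probe sets of a gene divided by the square root of the number of members. All other medians of the 4 main roles and of all members moved by less than this, although those near 0 changed sign. Quantile and loess scaling left Bok and Bid as the only members past 1.2-fold. Of all measured genes 3.82% and 3.89% were then 1.2-fold higher, and 3.73% and 3.75% lower. Of 241 recomputed differences of single genes 9 moved by more than the SD between probe sets. With a lower floor, no floor or no shared or cross-matching probe sets, each of these genes kept its probe set and value. Differences in those alternatives could therefore not move. In the next brightest probe sets those of Bcl2l1, Bcl2l2, Casp8, Mcl1 and Ripk1 moved, of 10 members measured. Those of Bcl2l1, Casp2 and Ripk1 moved with the mean over probe sets, and that of Bid with the floor at the 70th percentile. The causes were not tested. Members just above the floor are limited by their low signal, and the 8 members under it could differ unseen.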
